A study of Solea senegalensis with 8 samples.

Results

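The comparison set whole embryos of the Senegalese sole against hatched and metamorphosing larvae, miRNA by miRNA. The embryo group held 4 libraries, those of 75% epiboly (75Ep) and of 20 somites (20S), and the larva group held 4, those of hatching (Hatch) and of the climax of metamorphosis (Met). All 8 libraries of the study entered it, together with all 320 miRNAs of its table. Each stage was sequenced as 1 library of an incubation at 15°C and 1 of an incubation at 21°C, and all fish were kept at 21°C after hatching, so that the Met larvae of both incubations shared their rearing temperature. Each library pooled triplicate samples of whole animals, and no stage and temperature had a replicate library. The groups therefore have stage, incubation and animal pool as their spread. Where incubation was a term of the model, a p-value measures a difference against the remaining spread, which includes that between stages. Elsewhere it measures a difference against the whole spread. In the test of single miRNAs, the spread used was mostly a level shared over miRNAs (57.6 prior against 5 residual degrees of freedom). A miRNA with widely spread libraries could therefore pass. In libraries made from whole animals, fewer cells of a type and less RNA per cell cannot be told apart.

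MicroRNAs are short RNAs of which a mature strand, cut from either side of a hairpin precursor (5p or 3p), guides the repression of mRNAs with a matching site. Many are made in 1 tissue or lineage, such as miR-1 and miR-133 in striated muscle, miR-122 in liver and miR-124 in neurons, so their reads in a whole animal follow which tissues it holds. In fish, the miR-430 family is transcribed when the zygotic genome is switched on and speeds the clearance of maternal mRNAs.

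Values given here are RPM (reads per 1000000 trimmed reads), recovered from the deposited log2 percentages, and differences are on the log2 scale. Series of values run in the order 75Ep, 20S, Hatch and Met. The libraries held 2169069 to 4965849 trimmed reads, of which miRNAs took 6.59% to 6.84% in the 75Ep libraries, 22.3% to 23.1% at 20S, 24.9% to 30.5% at Hatch, and 46.0% and 17.9% at Met. A value that rests on 10 reads has a 95% Wilson interval of 5.43 to 18.4 reads and one on 1000 reads an interval of 939.9 to 1064 reads, which cover counting error only. A miRNA without a read can still make up 3 reads, or 0.604 to 1.38 RPM by library. Members of a family differ by few bases, so the division of reads between close names, such as those of let-7, miR-1, miR-10 or miR-153, is uncertain.

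Of the 295 miRNAs with a read in at least 2 libraries, 63 were higher in larvae (21.4% of those tested) and 3 were lower (1.02%), all 3 of them of the miR-430 family (limma, adjusted p under 0.05, temperature in the model). The 4 larva libraries lay above all 4 embryo libraries for 99 miRNAs (33.6%) and below them for 3 (1.02%), which were miR-430a, miR-430d and miR-92b. The larva libraries did not overlap the embryo libraries for 60 of the 63. The 3 that overlapped were miR-148, miR-101a-3p, which had 1 to 4 reads in the Hatch libraries but 928 and 48 at Met, and miR-126b. miR-148 had 1681 reads at 20S at 15°C and none at 21°C, where miR-147b had 1924, and the sum of both did not pass (2.82, limma adjusted p = 0.0939). Differences of the 63 ran from 2.68 to 8.54, with a median of 4.92, against a median of 2.39 over all 295 miRNAs. In 26 of the 63, every embryo library had under 10 reads, so the size of these differences is uncertain. A separation of the groups can also rest on 1 read or on depth. miR-142b counted as separate with 0.307 RPM at Hatch at 21°C against 0.301 at 20S at 15°C, 1 read each. miR-132-5p, miR-215 and miR-2187-3p counted with 1 read at Hatch at 21°C against none in embryos.

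**Figure D1:**
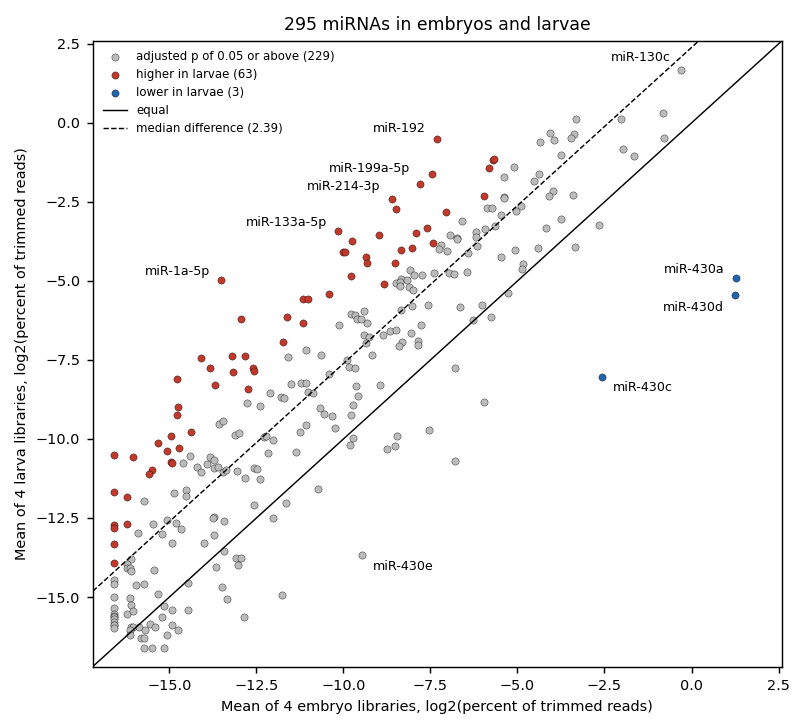
Mean of the 4 embryo libraries (x axis) against the mean of the 4 larva libraries (y axis) for 295 miRNAs, both as log2 of the percent of trimmed reads, with miRNAs without a read at -16.60. The 63 red points lie above the dashed line of the median difference (2.39), and the 3 blue points of miR-430a, miR-430c and miR-430d lie far below the line of equal values.

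The median over all miRNAs moved with the scaling. Dividing each library by its total of miRNA reads (rescaled) gave 1.53, where 33 miRNAs were higher and 3 lower, and subtracting the median miRNA of each library (centred) gave 0.13, where 1 was higher (miR-133a-5p, limma adjusted p = 0.0186) and 0 were lower, against 36 and 35 at an unadjusted p under 0.05. All 33 were among the 63, and all 63 kept a positive difference when centred. Each scaling shifted all miRNAs read in every library by the same amount (miR-192 from 6.80 to 5.61 rescaled and 3.92 centred). The 63 were picked for large differences, so a kept sign is no separate support. Centred, the larva libraries lay above the embryo libraries for 27 miRNAs (9.15%), every one among the 63, and below them for 35 (11.9%). The count of higher miRNAs was 140 without 20S and 67 without Hatch. Without 75Ep 2 miRNAs were higher (miR-1a-3p and miR-133a-5p) and without Met 0 were, with 49 and 48 higher at an unadjusted p under 0.05. By library, 28 were higher without 75Ep at 15°C, 27 without 75Ep at 21°C, 95 and 108 without 20S (15°C and 21°C), 6 without Met at 15°C and 31 without Met at 21°C. The 66 called miRNAs kept their direction without any 1 library or stage, which is no separate support. For the 60 of the 63 without overlap between the groups, the direction could not turn.

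Of the 63 miRNAs, 34 belonged to the 14 groups named for a tissue, organ or cell type. That is 36.2% of the 94 tested members of these groups, against 14.4% of the other 201 miRNAs, and the median differences were 3.24 and 2.15. These shares are a description only. The groups were chosen with earlier results of these data known, and some members are strands of the same precursor. The 34 came from 7 of the groups (muscle, liver and gut, neurons and brain, white blood cells, cartilage, vessels and smooth muscle). The other 7 (red blood cells, skin, eye, epithelia, hair cells and sensory organs, pancreas and endocrine, and germ line) had none among 32 tested members. In 61 of the 63, both Hatch libraries were above both 20S libraries. For the 60 without overlap between the groups this follows from the separation itself. In 46 of the 63, both Met libraries were above both Hatch libraries, and in 60 the Met library of 15°C was above that of 21°C, the library with fewer miRNA reads. All miRNAs together took 46.0% of the trimmed reads in the Met library of 15°C and 17.9% in that of 21°C. Neither count was made over all 295 miRNAs, so neither can be read as particular to the 63. The largest rise between consecutive stages fell between 75Ep and 20S for 23 of the 63, between 20S and Hatch for 21 and between Hatch and Met for 19. Over all 295 miRNAs these numbers were 174, 53 and 68. The 63 were picked by the difference between the groups, which also shapes their numbers, so the comparison is no test of timing. In the groups below, counts of calls as higher stand against 21.4% of all miRNAs tested. Counts of miRNAs with larva libraries above all embryo libraries stand against 33.6%. Counts of miRNAs that passed when rescaled stand against 33 of all 295 miRNAs.

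**Figure D2:**
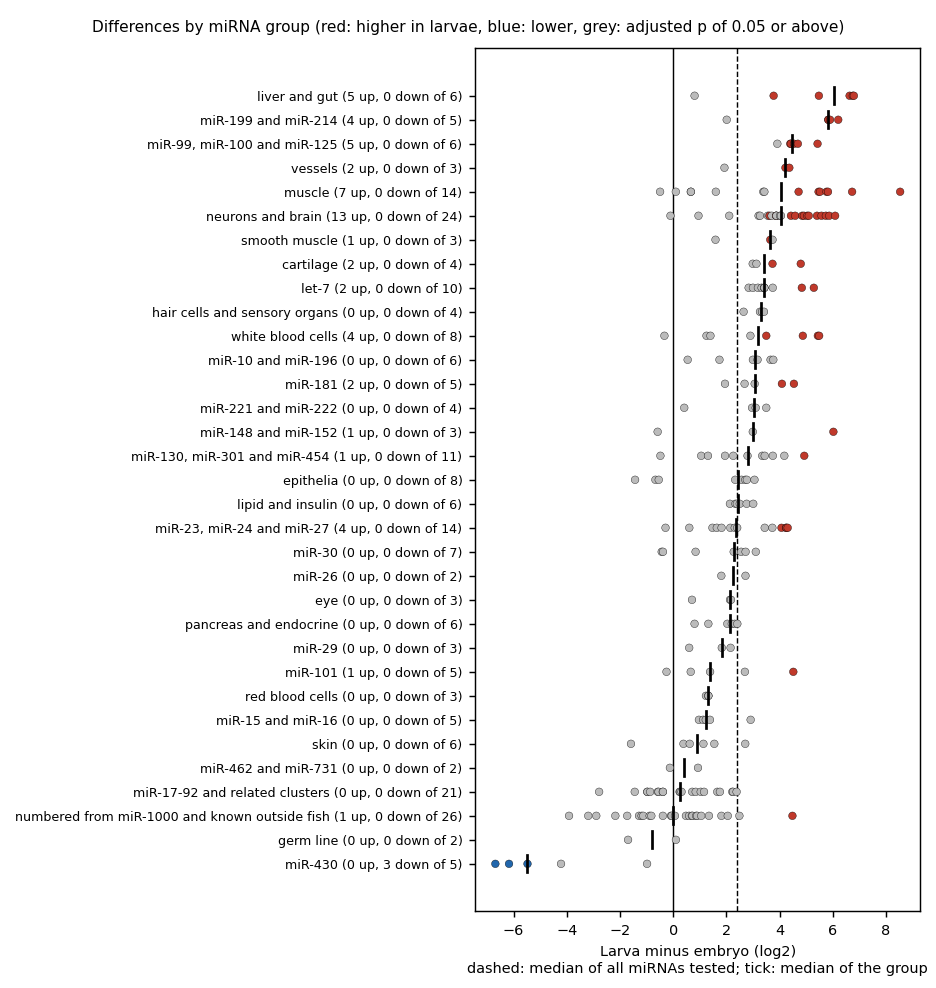
Difference between larvae and embryos (x axis, log2) for the tested members of 33 miRNA groups, ordered by the median of the group (black tick). Red points passed the test as higher in larvae and blue points as lower, and the dashed line is the median of all 295 miRNAs; liver and gut have the highest median and miR-430 the lowest.

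Muscle miRNAs were amongst the miRNAs with the largest differences. Of the 14 tested, 7 were higher in larvae and none lower, with a median difference of 4.07, and 5 of the 7 also passed when rescaled. miR-1 and miR-133 are transcribed together in skeletal and heart muscle and act in myoblast differentiation. miR-1a-3p had 18.6, 24.1, 1197 and 4593 at 15°C and 33.2, 39.4, 1026 and 911 at 21°C. All 4 larva libraries were far above the 4 embryo libraries, which hardly differed amongst themselves, and the difference was 5.77 (standard error 1.32, limma adjusted p = 0.00264). miR-133a-5p had 3.21, 19.9, 1100.1 and 1214 at 15°C and 5.53, 16.4, 895 and 615 at 21°C. It too was low in embryos and high from hatching on, with a difference of 6.73 (standard error 1.34, limma adjusted p = 0.000690). Both rose mainly at hatching. Their means changed by 5.17 and 5.78 from 20S to Hatch, against 0.31 and 2.10 from 75Ep to 20S, and by 0.88 and -0.20 from Hatch to Met.

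The largest difference of all was that of miR-1a-5p, the other strand of the miR-1a precursor, which had 0.357, 6.32, 123 and 3647 at 15°C and 0, 2.34, 237 and 95.1 at 21°C. No embryo library reached the lowest larva library, and the Met library of 15°C stood far above the other larva libraries. The difference was 8.54 (standard error 1.60, limma adjusted p = 0.000402). Its size rests on 28 embryo reads in all and, at 75Ep at 21°C, on the value given to an undetected miRNA. The deposited values of miR-1a-5p, miR-1a-3p and miR-1c are not whole numbers of reads in some Hatch libraries. Without the 6 miRNAs that have such values 60 others were higher. miR-133a-3p and miR-1c were higher by 5.47 and 5.52 (limma adjusted p = 0.00585 and 0.0105). miR-499-5p and miR-499-3p, encoded in an intron of a slow myosin gene, were higher by 5.82 and 4.72 (limma adjusted p = 0.00917 and 0.0343), with 1 and 0 reads of either strand at 75Ep. The rise of miR-499-3p came between 75Ep and 20S, by 6.24.

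miR-206-3p, a miRNA of skeletal muscle and the most read of the group, took another course. It had 89.5, 4388, 11685 and 8726 at 15°C and 226, 1919, 14642 and 1543 at 21°C. Its values were already high at 20S, and the Met library of 21°C was below the 20S library of either temperature, so the groups overlapped. The difference of 3.43 (standard error 1.54, limma adjusted p = 0.0842) did not pass. miR-133b-3p, from the precursor that lies beside that of miR-206, had 4.64, 171, 339 and 377 at 15°C and 6.45, 176, 380.2 and 224 at 21°C, with all larva libraries above the embryo libraries and a difference of 3.39 (standard error 1.40, limma adjusted p = 0.0619). The other 5 tested members (miR-1b, miR-133b-5p, miR-133c, miR-133d and miR-206-5p) had differences of -0.49 to 1.60. Summed over the group, the libraries had 122, 4766, 14784 and 19235 at 15°C and 289, 2283, 17494 and 3703 at 21°C, so that the Met library of 21°C was below the 20S library of 15°C.

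**Figure D3:**
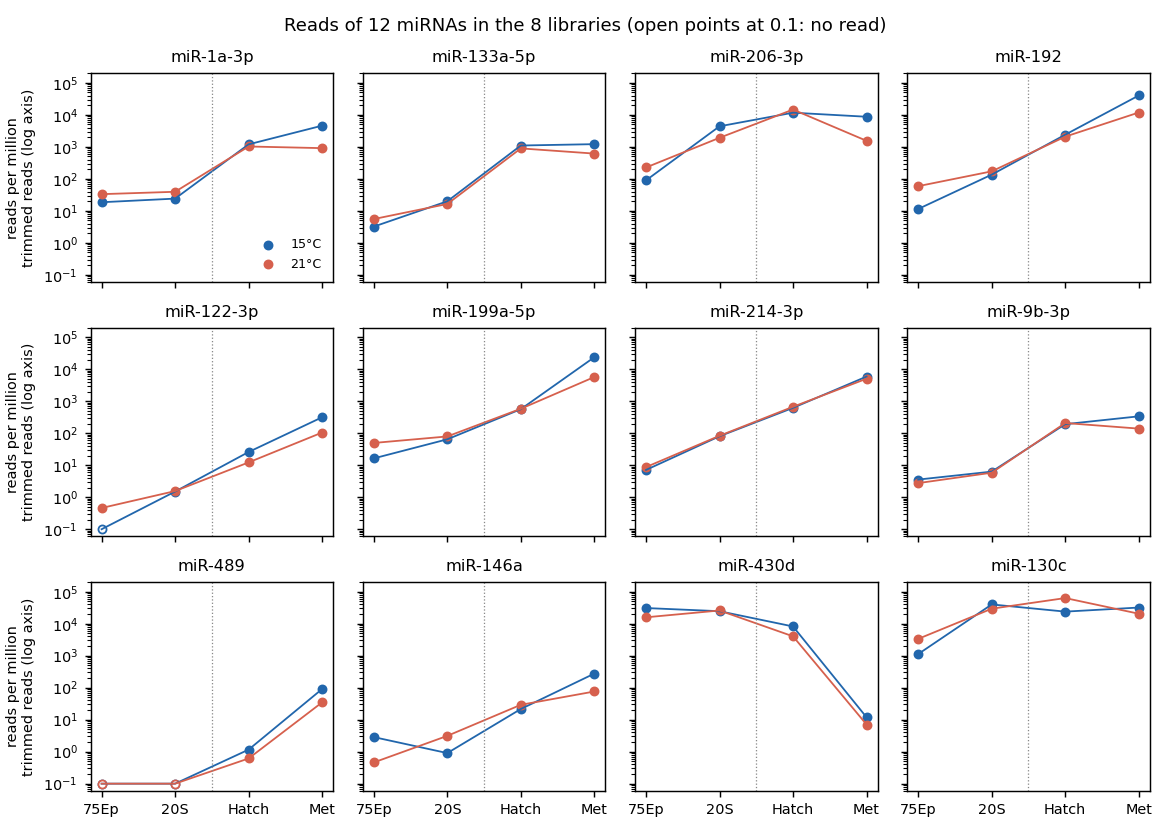
RPM (y axis, log scale) of 12 miRNAs at the 4 stages (x axis), in the library of each temperature, with libraries without a read as open points at 0.1 and a dotted line between embryos and larvae. miR-1a-3p, miR-133a-5p and miR-9b-3p step up between 20S and Hatch, miR-192 and miR-214-3p climb at every stage, miR-206-3p and miR-130c are high from 20S on, and miR-430d drops at Met.

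Liver and gut miRNAs had the highest median difference of any group, 6.06 over 6 miRNAs, of which 5 were higher in larvae, all 5 also when rescaled. miR-192, which is rich in gut epithelium and liver, had 11.4, 136, 2399 and 40312 at 15°C and 59.0, 172, 2084 and 11842 at 21°C. The values climbed at every stage, every larva library was above every embryo library, and at Met at 15°C it had the most reads of all miRNAs. Its difference was 6.80 (standard error 1.41, limma adjusted p = 0.000980). miR-194a, made from the same transcript as miR-192 in vertebrates, had 0.357, 3.01, 48.9 and 825 at 15°C and 0.461, 5.07, 26.7 and 317 at 21°C and a difference of 6.76 (standard error 1.61, limma adjusted p = 0.00264). Its embryo values rest on 1 to 13 reads.

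miR-122, the main miRNA of hepatocytes, was read from both strands. miR-122-3p had 0, 1.51, 26.0 and 317 at 15°C and 0.461, 1.56, 12.3 and 105 at 21°C, with 0 to 5 reads in each embryo library, and miR-122-5p had 2.85, 3.31, 36.9 and 213 at 15°C and 0.922, 11.3, 65.1 and 765 at 21°C. Larvae were above embryos for both strands, but at Met miR-122-3p was higher at 15°C and miR-122-5p at 21°C. The differences were 6.64 (standard error 1.67, limma adjusted p = 0.00370) and 5.48 (limma adjusted p = 0.00812). miR-215, a relative of miR-192, had no read in embryos and 3, 1, 45 and 8 reads in the larva libraries (Hatch at 15°C and 21°C, Met at 15°C and 21°C). The remaining member, miR-194b, did not pass (0.81, limma adjusted p = 0.442). miR-459, which in fish is linked to the gut, belongs to no group here and had 0, 0, 15.5 and 428 at 15°C and 1.38, 1.17, 5.22 and 48.5 at 21°C. It was near the floor in embryos and highest at Met, with a difference of 6.65 (standard error 1.70, limma adjusted p = 0.00386).

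The miR-199 and miR-214 group, transcribed together in mesenchyme, had a median difference of 5.84, and 4 of its 5 members were higher in larvae, all 4 also when rescaled. miR-214-3p had 7.14, 80.7, 623 and 5918 at 15°C and 8.76, 83.5, 673 and 5070.2 at 21°C. The 2 temperatures lay close together at every stage and the values rose at each of the 3 steps, by 3.38, 2.98 and 3.08. Its difference was 6.21 (standard error 1.37, limma adjusted p = 0.00194). miR-199a-5p had 16.4, 64.8, 566 and 23866 at 15°C and 49.8, 79.6, 584 and 5735 at 21°C and miR-199a-3p had 16.1, 75.3, 636 and 18845 at 15°C and 42.4, 208, 1431 and 6537 at 21°C. In both strands the larva libraries were above the embryo libraries and Met stood far above Hatch. Their differences were 5.84 (standard error 1.39, limma adjusted p = 0.00264) and 5.83 (limma adjusted p = 0.00264), and that of miR-214-5p was 5.90 (limma adjusted p = 0.00322). The remaining member, miR-199b, had 19 and 3 reads at Met and none before. Together the group went from 40.3 and 109 RPM at 75Ep (15°C and 21°C) to 52018 and 18168 at Met.

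Of the groups of cartilage, smooth muscle and vessels, some members passed. In the cartilage group 2 of 4 were higher and all 4 had larva libraries above embryo libraries, against 21.4% and 33.6% of all miRNAs tested. miR-455a had 1.07, 6.63, 28.8 and 335 at 15°C and 1.38, 7.80, 27.9 and 170.4 at 21°C, with a difference of 4.80 (standard error 1.57, limma adjusted p = 0.0194), and miR-140-5p, which acts in chondrocytes, had a difference of 3.74 (standard error 1.40, limma adjusted p = 0.0451). miR-145, known from smooth muscle, was higher by 3.65 (limma adjusted p = 0.0451), whereas miR-143-3p, its partner in the same transcript, did not pass (3.74, limma adjusted p = 0.0617). The vessel miRNA miR-126a-3p, made in endothelium, had 43.9, 251, 1438 and 4347 at 15°C and 21.7, 137, 509 and 1247 at 21°C. Larvae were above embryos in every library, and the difference was 4.22 (standard error 1.34, limma adjusted p = 0.0172). miR-126b passed on 1 library only, with 8432 reads at Met at 15°C and 0 to 3 reads in the other 7. In that library miR-126a-5p had 4 reads, against 2136 at Met at 21°C. With the reads of miR-126b and miR-126a-5p summed, larvae were above embryos in every library (4.69, limma adjusted p = 0.00557).

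Neural miRNAs were the group with the most calls. Of 24 tested, 13 were higher in larvae and none lower, with a median difference of 4.04, and 17 had larva libraries above all embryo libraries. When rescaled 6 passed. miR-137b, a miRNA of neurons, had 0, 3.01, 28.5 and 191 at 15°C and 0.461, 1.56, 21.5 and 40.3 at 21°C, with 0 to 10 reads in embryo libraries. The difference was 6.09 (standard error 1.66, limma adjusted p = 0.00689). miR-9b-3p, from a miR-9 precursor of neural progenitors, had 3.57, 6.32, 193 and 338 at 15°C and 2.77, 5.85, 209 and 139.8 at 21°C. As with miR-1a-3p and miR-133a-5p, embryos were low and the rise fell mainly at hatching, by 5.04, followed by 0.12 from Hatch to Met. Its difference was 5.58 (standard error 1.44, limma adjusted p = 0.00424).

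miR-218b had 3.21, 22.9, 169 and 2739 at 15°C and 5.07, 28.1, 355 and 746 at 21°C and a difference of 5.87 (standard error 1.38, limma adjusted p = 0.00264); the more abundant miR-218a, with 39.6, 1403, 2626 and 7943 at 15°C and 101, 1260.0, 3411 and 2879 at 21°C, did not pass (3.70, limma adjusted p = 0.0573), though its groups did not overlap either. miR-218 is a miRNA of motor neurons. miR-138a was higher by 5.10, miR-153b by 5.74, miR-137a-3p by 5.41, miR-129-5p by 5.04 and miR-9a-3p by 4.92. Their limma adjusted p ran from 0.00585 to 0.0163. miR-153a and miR-153c were higher by 4.85 and 4.59, and miR-153c, unlike miR-153b, peaked at Hatch (91 and 61 reads) and not at Met (69 and 13 reads). miR-132-5p and miR-212-3p, which neurons make in response to activity in mammals, came late. miR-212-3p had 1 read in each embryo library, 6 and 7 at Hatch and 408 and 72 at Met, and miR-132-5p had no read in embryos, 1 and 1 at Hatch and 62 and 23 at Met. The difference of miR-212-3p was 4.43 (limma adjusted p = 0.0343).

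miR-124-3p, the strand of miR-124 that acts in neurons, was higher in larvae by 3.62 (standard error 1.36, limma adjusted p = 0.0452), the smallest difference of the neural calls. It had 7.49, 174, 586 and 1969 at 15°C and 33.7, 255, 455 and 489.7 at 21°C. The other strand, miR-124-5p, had 59.2, 641, 657 and 163 at 15°C and 371, 317, 353 and 89.5 at 21°C and a difference of -0.10 (limma adjusted p = 0.950). One strand thus passed while the other overlapped between groups, and the test of their ratio is given further on.

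Apart from miR-150 and miR-223-3p, white blood cell miRNAs were scarce in embryos. Of 8 tested, 4 were higher in larvae, with a median difference of 3.20, and 3 passed when rescaled. miR-142, made in blood cells, had 1 read in the 4 embryo libraries together, rising to 15 (15°C) and 6 (21°C) reads at Hatch and to 198 and 32 at Met, with a difference of 5.49 (standard error 1.43, limma adjusted p = 0.00452). miR-146a, which dampens inflammatory signalling, had 2.85, 0.904, 21.6 and 276 at 15°C and 0.461, 3.12, 29.2 and 76.0 at 21°C. Its embryo values rest on 1 to 8 reads and every larva library was above them, by 5.44 (standard error 1.62, limma adjusted p = 0.0120). miR-223-3p, a miRNA of neutrophils and their precursors, had 5.71, 49.4, 338 and 879 at 15°C and 7.38, 28.9, 364 and 413 at 21°C and was the best read of the 4, with a difference of 4.88 (standard error 1.35, limma adjusted p = 0.00802). miR-142b had 1 read in embryos and 46 in larvae, and passed (limma adjusted p = 0.0221). The scarce miR-155, miR-146b and miR-223-5p did not pass. miR-150, a lymphocyte miRNA, had 43.9, 44.3, 29.2 and 600.5 at 15°C and 53.5, 19.5, 16.6 and 340.2 at 21°C. It was high at Met only, with Hatch within or below the range of the embryo values, and did not pass (1.40, limma adjusted p = 0.442). The red blood cell miRNA miR-451 had a similar course. It had 19.3, 3.01, 2.32 and 261 at 15°C and 9.68, 3.51, 1.54 and 84.0 at 21°C, lowest at Hatch, and none of the 3 red blood cell miRNAs passed.

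The miR-99, miR-100 and miR-125 group, whose genes lie in clusters with let-7 genes, was flat through the embryo stages per trimmed reads. As a share of the miRNA reads it fell, from 0.586% (15°C) and 0.674% (21°C) at 75Ep to 0.194% and 0.200% at 20S. Of 6 tested, 5 were higher in larvae and all 6 had larva libraries above all embryo libraries (21.4% and 33.6% over all miRNAs tested), with a median difference of 4.48. Of these, 2 passed when rescaled. miR-125b-5p had 192, 176, 1150.4 and 24517 at 15°C and 206, 195, 1557 and 9152 at 21°C. The 4 embryo values lie within 176 to 206, and the larva values climbed at Hatch and again at Met, with a difference of 4.54 (standard error 1.42, limma adjusted p = 0.0163). miR-100 had 17.5, 23.5, 186 and 6023 at 15°C and 15.2, 25.0, 337 and 1428 at 21°C, with a difference of 5.43 (standard error 1.36, limma adjusted p = 0.00354). miR-99a-5p and miR-125a were higher by 4.40 and 4.42 (limma adjusted p = 0.0163 and 0.0160), and miR-99a-3p by 4.69 (limma adjusted p = 0.0185).

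The let-7 family, which promotes differentiation, had a median difference of 3.42, and 2 of its 10 members passed as higher in larvae, none when rescaled. This share was no higher than the 21.4% over all miRNAs tested. let-7d had 2 to 4 reads in every embryo library, 22 and 13 at Hatch and 2462 and 1371 at Met. The difference of 5.29 (standard error 1.71, limma adjusted p = 0.0185) was thus mostly that of Met. let-7c was higher by 4.84 (limma adjusted p = 0.0235). let-7a, the most read, had 17.1, 33.7, 91.4 and 2629 at 15°C and 21.7, 48.4, 38.7 and 859 at 21°C. The Hatch library of 21°C lay within the range of the embryos and the difference of 3.42 (standard error 1.40, limma adjusted p = 0.0619) did not pass. Summed over the family, the libraries had 46.0, 138, 275 and 7226 at 15°C and 53.9, 162, 218 and 2483 at 21°C.

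**Figure D4:**
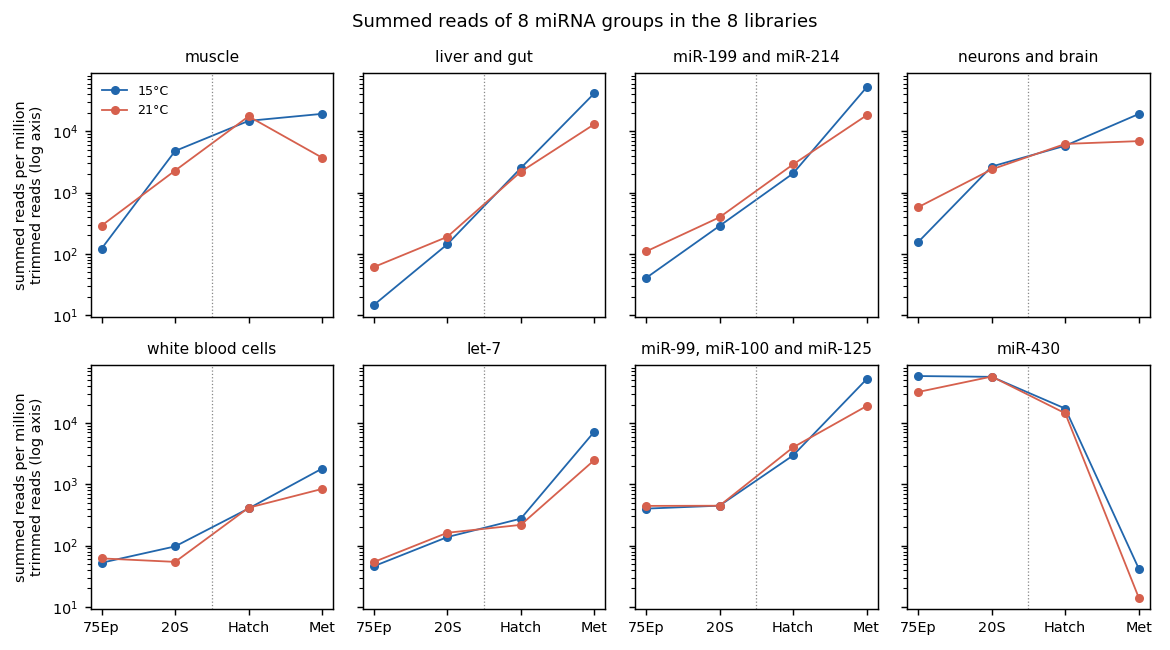
Summed RPM (y axis, log scale) of 8 miRNA groups at the 4 stages (x axis), in the library of each temperature, with a dotted line between embryos and larvae. The miR-99, miR-100 and miR-125 group stays between 400.6 and 448 in all embryo libraries and reaches 51749 and 18866 at Met, let-7 rises mainly between Hatch and Met, and miR-430 drops from 17182 and 14385 at Hatch to 42.1 and 14.1 at Met.

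In the miR-23, miR-24 and miR-27 group 4 of 14 were higher in larvae, all of miR-23 and miR-24 (miR-23b, miR-23a-3p, miR-24b and miR-24a-3p, by 4.07 to 4.31, limma adjusted p of 0.0185 to 0.0359), and none of these passed when rescaled. Over all miRNAs tested the share was 21.4%. The miR-181 family had 2 of 5. miR-181a-5p, which acts in lymphocyte and myoblast differentiation, had 27.8, 563, 2361 and 7276 at 15°C and 92.7, 980.0, 3986 and 6103 at 21°C. Every larva library was above the embryos, with a difference of 4.54 (standard error 1.43, limma adjusted p = 0.0163). The opposite strand, miR-181a-3p, had 31.8, 2415, 5601 and 2717 at 15°C and 259.6, 1799.7, 3008 and 1345 at 21°C, fell back at Met, and did not pass (2.69, limma adjusted p = 0.144). miR-181c was higher by 4.09 (limma adjusted p = 0.0221). miR-338-3p, made from an intron of a neuronal gene, had 2.14, 23.5, 78.6 and 1026 at 15°C and 2.31, 24.6, 73.7 and 519.8 at 21°C. Larvae were above embryos throughout, with a difference of 5.01 (standard error 1.46, limma adjusted p = 0.0105), and miR-338-5p was higher by 4.35 (limma adjusted p = 0.0454). Neither is in a tissue group here. miR-135a, with 0 to 3 reads in embryo libraries and 253 and 80 at Met, was higher by 5.18 (limma adjusted p = 0.0122).

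Several well-read groups had no call. None of the 6 tested miRNAs of miR-10 and miR-196, which are encoded in the Hox clusters, passed, with a median difference of 3.09. miR-10d had 73.5, 5373, 11311 and 10668 at 15°C and 70.5, 4469, 12397 and 2850.2 at 21°C and miR-10b had 216, 4499.9, 11605 and 8983 at 15°C and 155, 4506, 10929 and 2426 at 21°C. In both, 20S was far above 75Ep and the Met library of 21°C was below the 20S libraries, so the groups overlapped (limma adjusted p = 0.0659 and 0.128). In the skin group none of 6 passed either, with a median difference of 0.88. Its miR-203a, an epidermal miRNA, had 863, 14911, 17565 and 13476 at 15°C and 3787, 21105, 18945 and 5387 at 21°C, with groups that overlapped and a difference of 1.14 (standard error 1.73, limma adjusted p = 0.615). miR-203b-3p had a difference of 0.62 (limma adjusted p = 0.772). miR-204, known from the pigment epithelium of the eye, had 344, 9582, 15014 and 17510.0 at 15°C and 1537, 7300.2, 15917 and 3309.5 at 21°C and a difference of 2.14 (standard error 1.65, limma adjusted p = 0.316). When centred, the differences of miR-203a, miR-203b-3p and miR-204 were -1.74, -2.26 and -0.74.

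miR-130c and its relatives of the miR-130, miR-301 and miR-454 group were amongst the most read miRNAs. miR-130c had 1126, 40029, 23873 and 31998 at 15°C and 3357, 29465, 63355 and 20525 at 21°C. The embryo values of 20S lay within those of the larvae, and the difference of 1.95 (standard error 1.86, limma adjusted p = 0.423) did not pass and was -0.93 when centred. miR-301c had 93.5, 5509, 10932 and 12089 at 15°C and 399, 4920.2, 17285 and 6187 at 21°C, with larvae above embryos but a difference of 3.44 (standard error 1.60, limma adjusted p = 0.0917). miR-454 was the 1 member of 11 that passed. It had no read in the 4 embryo libraries and 11, 21, 19 and 6 reads in the larva libraries. miR-103a-3p, which acts in insulin signalling, had 196, 2452, 4307 and 21117 at 15°C and 854, 2101, 5018 and 7974 at 21°C and groups that did not overlap, with a difference of 3.01 (standard error 1.54, limma adjusted p = 0.122). miR-26a, which acts in muscle differentiation in mammals, had 183, 1718, 2297 and 4531 at 15°C and 286, 1827, 2645 and 907 at 21°C and groups that overlapped, with a difference of 1.81 (standard error 1.44, limma adjusted p = 0.327), or -1.07 when centred.

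Lower in larvae were 3 of the 5 miR-430 miRNAs, also when rescaled, and the median difference of the family was -5.48. miR-430d had 30880.0, 24585, 8200.5 and 11.9 at 15°C and 15855, 25887, 4030.2 and 7.06 at 21°C. The larva libraries were below the embryo libraries, but Hatch and Met differed from each other more than Hatch and the embryos did. The difference was -6.69 (standard error 1.70, limma adjusted p = 0.00386). miR-430a had 25963, 29021, 7793 and 28.0 at 15°C and 15375, 28938, 9675 and 5.89 at 21°C and a difference of -6.17 (standard error 1.73, limma adjusted p = 0.00845). miR-430c had 1465, 2973, 1179 and 2.22 at 15°C and 807, 2329.7, 677 and 1.18 at 21°C. Its Hatch library of 15°C lay above the 75Ep library of 21°C, so the groups overlapped, and the difference was -5.48 (standard error 1.54, limma adjusted p = 0.00845). miR-430e had 14 and 27 reads at 75Ep, 85 and 64 at 20S, 42 and 11 at Hatch and none at Met, and did not pass (-4.22, limma adjusted p = 0.0617). miR-430i had at most 3 reads. From Hatch to Met the means of miR-430a, miR-430c and miR-430d changed by -9.40, -9.11 and -9.29, against -1.74, -1.56 and -2.13 from 20S to Hatch. Without Met, or without the Met library of either temperature, none of the 3 passed, nor did any without the 75Ep library of 15°C.

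The miR-17-92 cluster and its relatives, which promote cell proliferation, had a median difference of 0.26 over 21 miRNAs, none of which passed in either direction. When centred, all 21 had a negative difference, with a median of -2.61, against a median of 0.13 over all 295 miRNAs. Of the 21, 10 had larva libraries below all embryo libraries when centred, out of 35 such miRNAs in all (11.9% of those tested). miR-17a-5p had 1076, 12031, 4938 and 7769 at 15°C and 7231, 12230.0, 14897 and 4806 at 21°C. It peaked in the Hatch library of 21°C and the groups overlapped, with a difference of 0.32 (standard error 1.67, limma adjusted p = 0.886) that was -2.56 when centred. miR-92a had 461, 1708, 1303 and 268 at 15°C and 633, 1921, 1853 and 299 at 21°C. Its Met libraries were below all others, the Hatch libraries lay within the embryo range, and the difference was -0.58 (standard error 1.39, limma adjusted p = 0.755). miR-92b had 4 and 3 reads at 75Ep, 7 and 2 at 20S, 1 and 2 at Hatch and none at Met, with a difference of -2.78 (standard error 1.21, limma adjusted p = 0.0754). miR-20a-5p had 416 reads in the Hatch library of 21°C against 20229 at 15°C, and its difference was -0.55 (limma adjusted p = 0.778). It was thus low in the library where miR-17a-5p peaked. The division of reads between these close names is uncertain, and why they moved in opposite directions there was not tested.

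The miRNAs numbered from miR-1000 upwards that are known outside fish had a median difference of 0.01 over the 26 tested of 37. Only miR-1623 passed, with 2 reads in the embryo libraries together and 116 in the larva libraries. The best read of them that were lower in larvae dropped at Met. miR-1260b had 151, 76.2, 33.4 and 0.805 at 15°C and 88.1, 66.3, 68.2 and 0.706 at 21°C, and its Hatch libraries overlapped the embryos, with a difference of -3.91 (standard error 1.57, limma adjusted p = 0.0617). miR-3968 had 93.5, 169.9, 115 and 8.66 at 15°C and 382, 113, 121 and 1.88 at 21°C and miR-4454 had 31.4, 84.0, 24.1 and 6.65 at 15°C and 41.0, 74.9, 74.0 and 1.65 at 21°C, with differences of -2.89 and -2.17 (limma adjusted p = 0.116 and 0.256). miR-202-5p, a miRNA of the gonad, was highest at 75Ep, with 113, 4.82, 6.72 and 12.3 at 15°C and 79.3, 12.9, 26.1 and 2.35 at 21°C, and its 20S values lay within those of larvae (-1.70, limma adjusted p = 0.407).

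In embryos 32 miRNAs of the 320 had no read whereas larvae had at least 1. Of these, 6 were read in all 4 larva libraries (miR-489, miR-132-5p, miR-215, miR-454, miR-1388-5p and miR-2187-3p). All 6 passed the test, which is no separate support because they were picked by having reads in larvae only. Another 14 were read in 1 larva library only. The largest was miR-489, which lies in an intron of the calcitonin receptor gene in mammals, with 5 and 2 reads in the Hatch libraries, then 452 and 148 at Met. Against a floor of 3 reads over the 4 embryo libraries together, its share of the pooled trimmed reads was at least 131-fold higher in larvae. For miR-132-5p this bound was at least 18.8-fold, for miR-215 and miR-454 at least 12.3-fold, for miR-1388-5p at least 8.63-fold and for miR-2187-3p at least 4.10-fold. The embryo libraries had 142964 to 767509 miRNA reads and the larva libraries 758723 to 2284973, and a count of 0 depends on this depth. The fitted differences of these miRNAs depend on the value given to an undetected miRNA and are no bounds. In the other direction 14 miRNAs were read in embryos only, none in all 4 embryo libraries and none with more than 4 reads in all.

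Reads were spread over more miRNAs in larvae. The effective number of miRNAs, the exponential of the Shannon entropy of their shares of the miRNA reads, was lowest at 75Ep, with 5.18 at 15°C and 16.1 at 21°C. It was 27.6 and 27.9 in the 20S libraries, 47.5 and 34.6 in those of Hatch, and 55.3 and 52.5 in those of Met. All larva libraries were above all embryo libraries, with 47.5 ± 9.16 against 19.2 ± 10.8 (SD, n = 4 each). The two-sided exact permutation test gave p = 0.0286, and no split of 4 against 4 can give less. The 5 most read miRNAs held 88.5% (95% Wilson interval 88.3 to 88.6) and 69.2% (69.0 to 69.4) of the miRNA reads in the 75Ep libraries. The share was 52.2% and 52.9% in 20S, 32.0% and 42.7% in Hatch, and 30.8% and 31.4% in Met libraries. Here too the groups did not overlap (65.7% ± 17.1 against 34.2% ± 5.67, SD, n = 4 each, exact permutation p = 0.0286, two-sided). Both tests treat the 4 libraries of a group as exchangeable, although they share stages. They cannot tell a difference between the groups from a steady change over the stages. These measures do not depend on the scaling to trimmed reads. Without the miR-430 family the effective number was 27.3 to 42.5 in embryo libraries and 32.5 to 55.2 in larva libraries, and the groups overlapped (exact permutation p = 0.0571).

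The lists of the 5 most read miRNAs show which miRNAs followed miR-430. At 75Ep they were miR-430d and miR-430a with miR-17a-5p, miR-130c and either miR-430c (15°C) or miR-203a (21°C). At 20S miR-130c came first, ahead of miR-430a, miR-430d and miR-203a, followed by miR-17a-5p (15°C) or miR-203b-3p (21°C). At Hatch miR-130c, miR-203a and miR-204 were joined by miR-206-3p and miR-10b (15°C) or by miR-301c and miR-17a-5p (21°C). At Met, miR-192, miR-130c, miR-125b-5p and miR-103a-3p were joined by miR-199a-5p (15°C) or miR-199a-3p (21°C). Of the 5 most read at Met, only miR-130c was amongst the 5 most read of any embryo library.

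The ratio of the 2 strands of a precursor is free of the scaling of a library where both strands are well read. Where a strand has few or no reads, the 0.5 read added makes the ratio follow the depth and the reads of the other strand. Of 41 precursors with at least 10 reads of both strands together in every library, 0 changed their ratio between embryos and larvae at an adjusted p under 0.05 (0%, limma on the log2 ratio with 0.5 read added), whereas 12 had an unadjusted p under 0.05. The count was 1 with 1 read added, 8 without the temperature term, 11 with stage terms in the model, and 5, 5 and 2 without 20S at 15°C, 20S at 21°C and Hatch at 15°C. Of the 12, miR-124 was read well from both strands. The log2 ratio of miR-124-5p to miR-124-3p was 2.95, 1.88, 0.17 and -3.60 at 15°C and 3.45, 0.31, -0.37 and -2.45 at 21°C. All larva values were below the embryo values, and the sign turned between groups at 21°C and between Hatch and Met at 15°C. The change was -3.71 (standard error 1.11, limma adjusted p = 0.0634). miR-133b went the same way, from -1.95 and -0.54 (15°C) and 1.07 and -0.88 (21°C) in embryos to -2.13 and -3.79, and -3.21 and -4.18, in larvae, a change of -2.75 (standard error 0.872, limma adjusted p = 0.0634). The lowest adjusted p belonged to miR-125b (4.77, limma adjusted p = 0.0509) and miR-23a (-4.88, limma adjusted p = 0.0509), whose minor strands had few reads. The minor strands of miR-206, miR-223, miR-200a, miR-200b and miR-130c, also among the 12, had at most 7 reads in either group.

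**Figure D5:**
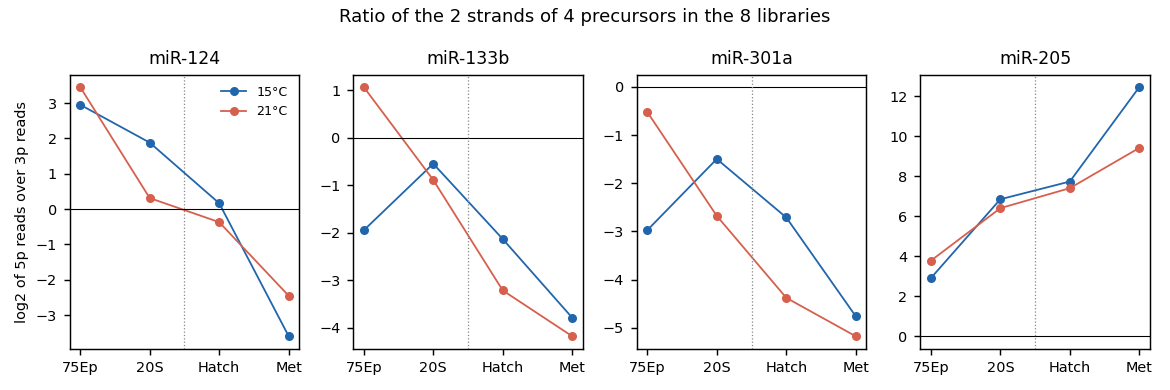
Log2 of 5p reads over 3p reads (y axis, each panel with its own scale) of 4 precursors at the 4 stages (x axis), in the library of each temperature, with a dotted line between embryos and larvae and a line at equal reads. The ratio of miR-124 falls from above to below equal reads, those of miR-133b and miR-301a are lowest at Met, and that of miR-205 is highest at Met; none of the 4 passed an adjusted p under 0.05.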

How the data were processed

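Small RNA (SOLiD sequencing) was measured in 8 libraries, each made from a pool of triplicate samples. Reads were trimmed by the authors, who removed other non-coding RNAs, matched the rest to miRBase in CLC Genomics Workbench and deposited, per miRNA and library, the log2 of its percentage of the trimmed reads, with -46.507 where there was no read. The smallest steps of these values gave the depth of each library, and 99.5% of 2033 values came out as whole reads (within 0.01 read). The 10 others belong to 6 miRNAs.

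Larva and embryo libraries were compared with limma 3.58.1 (R 4.3.3) on the deposited log2 values, in a model of group and incubation temperature. The variance could follow the mean level, and p-values were adjusted by Benjamini-Hochberg over 295 miRNAs with a read in at least 2 libraries. The variance of each miRNA was drawn towards a level shared over miRNAs, weighted as 57.6 prior against 5 residual degrees of freedom. The prior was 8.21 rescaled and 4.82 centred, so the counts under these settings also differ in this weight. Undetected miRNAs were set to -16.60, the value of 0.5 read in the deepest library. Ratios of strands had 0.5 read added to both. Single values per library were compared by exact permutation over 70 splits. The miRNAs named are members of chosen groups, the 10 largest differences in each direction among those past the threshold, the 5 most read of each library, those with no read in 1 group and at least 100 in the other, those the study measured by qPCR, and strand pairs past the threshold. Outside this rule, miR-135a, both strands of miR-338, the strand pairs shown, the other miRNAs read only in larvae and the pairs of names were chosen after their values were seen. Members, groups and tests were chosen with earlier results of these data known. Alternatives were other scalings, filters, values for undetected miRNAs, model terms, voom, and leaving out libraries or stages. No miRNA sequence is printed here.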

Additional observations from a re-analysis of the deposited data

Results flagged for a closer look

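Of 190 groups of 4 libraries examined, 11 (5.79%) had a library set apart from the other 3 by more than Dixon's critical value at the 95% level, where chance gives about 1 in 20. Values are log2 of the percent of trimmed reads. The Met library of 15°C stood above the other larva libraries for miR-1a-3p (-1.12), miR-1c (-8.07), miR-9a-3p (-3.14) and miR-1388-5p (-10.51, 34 reads). The Met library of 21°C stood below them for miR-204 (-1.60), miR-10b (-2.04) and miR-10d (-1.81). In embryos the distance came from a single read in 1 library with none in the other 3, for miR-142 (-14.41, 75Ep at 21°C) and for miR-126b and miR-142b (both -15.02, 20S at 15°C). The 5 most read miRNAs of the Hatch library of 21°C held 42.7% of its miRNA reads, above the other larva libraries.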

How the results depend on the processing

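No paired analysis was possible because the labels carry no replicate numbers. The incubation temperature, which the labels do give, was a term of the model. Counts of miRNAs higher and lower in larvae were 63 and 3. They were 33 and 3 rescaled, 1 and 0 centred, 22 and 0 with values raised to 3 reads of the shallowest library, 23 and 0 with undetected values as deposited, 84 and 6 without the temperature term, 167 and 10 with stage terms, 64 and 1 summed over number and strand, 2 and 0 without 75Ep, 140 and 2 without 20S, 67 and 8 without Hatch, 0 and 0 without Met, 0 and 0 within 15°C (31 and 0 at an unadjusted p under 0.05), and 1 and 0 within 21°C. Settings chosen after seeing the data gave 3 and 0 rescaled without 75Ep, 0 and 0 centred without 75Ep (31 and 20 at an unadjusted p under 0.05), 60 and 3 without the 6 miRNAs that are not whole reads, and 83 and 5 with 4 pairs of names summed. Leaving out 1 library gave 6 to 108 higher and 0 to 6 lower. With voom on recovered reads 60 and 4 were called. The weight of the shared variance also changed between these settings, and was infinite with the pairs of names summed, against 57.6 in the main fit. What made the counts differ was not tested.

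Larva libraries below embryo libraries numbered 9 rescaled and 35 centred, and 27 lay above when centred, with 101 to 127 above and 3 to 7 below on leaving out 1 library. The difference in effective number (28.3) was 13.9 without miR-430, 19.7 without 75Ep, 36.8 without 20S, 34.7 without Hatch and 21.8 without Met, and 23.6 to 32.6 without 1 library. That in the share of the 5 most read (-31.5 percentage points) was -13.8, -18.3, -44.6, -34.6 and -28.3 in the same order and -36.0 to -23.9 without 1 library. Without a stage the smallest exact p that was reached was 0.0667, and without 1 library p was 0.0286 or 0.0571. Strand ratios passed for 1 precursor with 1 read added, 1 with at least 50 reads, 8 without temperature, 11 with stage terms and 0 to 5 without 1 library.

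Signs turned only for miRNAs that did not pass, apart from miR-499-3p (-0.024 centred without 75Ep). The miRNAs that passed were picked for large differences, so their kept signs are no separate support. Rescaled, miR-133b-5p was at -0.52, miR-17a-5p at -0.87, miR-203a at -0.049 and miR-203b-3p at -0.56. Centred, miR-133b-5p was at -2.21, miR-17a-5p at -2.56, miR-26a at -1.07, miR-130c at -0.93, miR-181a-3p at -0.19, miR-203a at -1.74, miR-204 at -0.74, miR-203b-3p at -2.26, miR-150 at -1.48 and miR-451 at -1.55. Centred without 75Ep, miR-206-3p was at -0.36, miR-133b-3p at -0.72, miR-133b-5p at -3.34, miR-17a-5p at -2.36, miR-26a at -1.28, miR-130c at -1.74, miR-181a-3p at -1.19, miR-203a at -2.13, miR-204 at -1.24, miR-301c at -0.55, miR-10b at -0.93, miR-203b-3p at -2.83, miR-218a at -0.11 and miR-10d at -0.90. Rescaled without 75Ep, miR-133b-5p was at -2.03, miR-17a-5p at -1.05, miR-130c at -0.43, miR-203a at -0.82 and miR-203b-3p at -1.52. Without 75Ep, miR-133b-5p was at -1.72, miR-17a-5p at -0.74, miR-130c at -0.12, miR-203a at -0.51, miR-203b-3p at -1.21 and miR-202-5p at 0.10. Without 20S, miR-124-5p was at 0.70, miR-92a at 0.30 and miR-20a-5p at 1.08. Without Hatch, miR-133b-5p was at -0.14 and miR-203b-3p at -0.48. Without Met, miR-124-5p was at 0.90, miR-150 at -0.78, miR-451 at -1.82 and miR-92a at 0.65. Within 15°C, miR-124-5p was at 0.75 and miR-20a-5p at 1.66, and within 21°C miR-133b-5p was at -0.70, miR-17a-5p at -0.15 and miR-203b-3p at -0.47. On leaving out 1 library, miR-124-5p ran from -0.96 to 0.46, miR-133b-5p from -0.96 to 1.75, miR-17a-5p from -0.47 to 0.92, miR-203b-3p from -0.60 to 1.43, miR-20a-5p from -1.86 to 0.45 and miR-451 from -0.11 to 2.62.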

Other observations

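In 4 pairs of related or neighbouring names, 1 name had nearly all reads in most libraries and the other had them in 1 or 2, a pattern noticed after the values were seen. miR-147b had 1924 reads at 20S at 21°C, where miR-148 had 0. miR-126b had 8432 reads at Met at 15°C, where miR-126a-5p had 4. let-7i had 952 reads at Met at 21°C, where let-7j had 15. miR-101a-5p had 24 reads at 75Ep and 104 at Hatch, both at 21°C, where miR-101b-5p had 0 and 1. With each pair summed, let-7j with let-7i was higher in larvae (4.32, limma adjusted p = 0.0223) and miR-101b-5p with miR-101a-5p was not (-0.21, limma adjusted p = 0.912). Why the reads stand under different names was not tested.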
